A study of Homo sapiens with 6 samples.

Results

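Described here is the resting transcriptome of AZ-521 cells kept in the solvent DMSO for 48 h, the control group of a study of the saponin platycodon D. The members are the 3 DMSO samples of the 6 samples in the series, taken by their labelled treatment, and the 58735 genes of the deposited table were read in those 3 samples alone. The 3 samples share the same cell line, a genotype labelled WT, and minimal essential medium with fetal bovine serum, pyruvate and non-essential amino acids. Cells treated with platycodon D are not described, and with a single group no test between groups was made. Nothing in the labels says that the replicates were separate cultures, so the spread between them may be technical.

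AZ-521 is an established line that the labels call a gastric cancer cell from stomach, whereas cell banks list it as derived from a duodenal carcinoma. A cell's messenger RNAs can be sorted by what their proteins do: housekeeping machinery, products released to the outside, receptors that read the surroundings, and transcription factors that hold cell identity. Gastric and intestinal epithelial cells are recognised by keratins, E-cadherin and EPCAM, by mucins, trefoil factors and digestive enzymes, and by factors such as SOX2, GATA4, HNF4A and the CDX proteins. Secreted growth factors are often made as larger precursors, so an mRNA level says nothing about how much active factor is released.

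Levels are in FPKM, that is fragments scaled to gene length and library size, as deposited. A gene is called detected at 1 FPKM or more in each of the 3 samples. Levels of different genes are compared only on this per-length scale, and errors are SD over n = 3. Recovered reads over genes numbered 14915538, 15505311 and 16341687 in replicates 1 to 3. Pearson correlations of log2(FPKM + 1) across genes were 0.985, 0.986 and 0.990 for the 3 pairs of replicates.

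DMSO replicate 1 stood apart from the others. Across 13238 genes, its deviations from the group mean had a Spearman correlation of -0.65 with transcript GC content, against 0.47 and 0.55 in replicates 2 and 3, where genes are not independent replicates. Deviations of the 3 samples cancel out for each gene, so these correlations are not separate results. Replicate 1 was the sample farthest from the median in 68.0% of the 4287 protein-coding genes with a mean of at least 10 FPKM. In 0 of those 4287 genes did leaving it out move the mean by 1.5-fold or more. A mean of 3 cannot rise that far when its lowest value, if above 0, is left out. The count thus says nothing about the 1584 genes in which replicate 1 was lowest. The median coefficient of variation over the 4287 genes was 9.87%. It was 12.4% for genes at 1 to 5 FPKM and 7.92% for genes above 100 FPKM, so levels of low genes carry more error.

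Of the 58735 genes, 12228 were detected, which is 20.8%, and 29367 had no read in any sample. Detection was far more common among protein-coding genes, with 10235 of 19951, or 51.3%. Outside the Y chromosome, detected protein-coding genes had a median of 8.02 FPKM, and the middle 80% of them ran from 2.15 to 33.2 FPKM. Only 196 of these 10228 genes reached 100 FPKM. Most detected genes were thus expressed at low to moderate levels, beside a small group of very abundant mRNAs.

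Among abundant mRNAs of the nuclear genome, the highest was ALDH1A1, the cytosolic retinaldehyde dehydrogenase that makes retinoic acid (gene at chr9:72900662-73080442, GRCh38). Mitochondrial mRNAs, given further below, are left out of this order. ALDH1A1 stood at 1318, 1249 and 1298 FPKM in replicates 1 to 3, a mean of 1289 ± 35.2. All 3 of its values lay above every value of the next gene. ENC1, an actin-associated Kelch protein named for its expression in ectoderm and neural tissue, followed at 1067, 972 and 969 FPKM. Its own 3 values lay above all those of the third gene, the translation elongation factor EEF1A1 (831 ± 33.6 FPKM). FTL, the light chain of the iron store ferritin, read 679, 803 and 894 FPKM, lowest in replicate 1.

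Several of the next genes act at the cell surface or outside the cell. GJA1, the gap junction protein connexin 43, was at 735, 596 and 619 FPKM, highest in replicate 1. SLC2A3, a high-affinity glucose transporter, stood at 610 ± 18.1 FPKM. The other widely used glucose transporter of this family, SLC2A1, had 12.6 FPKM, and it was named after its value was seen. Values of GJA1, SLC2A3, the growth factor AREG (581 ± 19.3 FPKM) and the Wnt antagonist DKK1 (567 ± 34.2 FPKM) overlapped from each to the next, so their order is not fixed by these samples. The other members of the 20 highest included the elongation factor EEF2 at 486 FPKM and the myosin light chain MYL12B at 482 FPKM. Chromatin protein HMGA1 had 475 FPKM, the phospholipid-binding annexin ANXA1 469 FPKM and the heme-degrading enzyme HMOX1 415 FPKM. The actin-monomer binder TMSB10 had the widest spread of the 20, with 260, 443 and 488 FPKM, and replicate 1 was again lowest. ATP5F1B of the mitochondrial ATP synthase, the chaperone HSP90AB1 and the ribosomal proteins RPL19, RPL13A and RPS12 were also among the 20, between 351 and 377 FPKM. Of the 19 pairs of neighbours in this order, 16 had overlapping values.

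**Figure D1:**
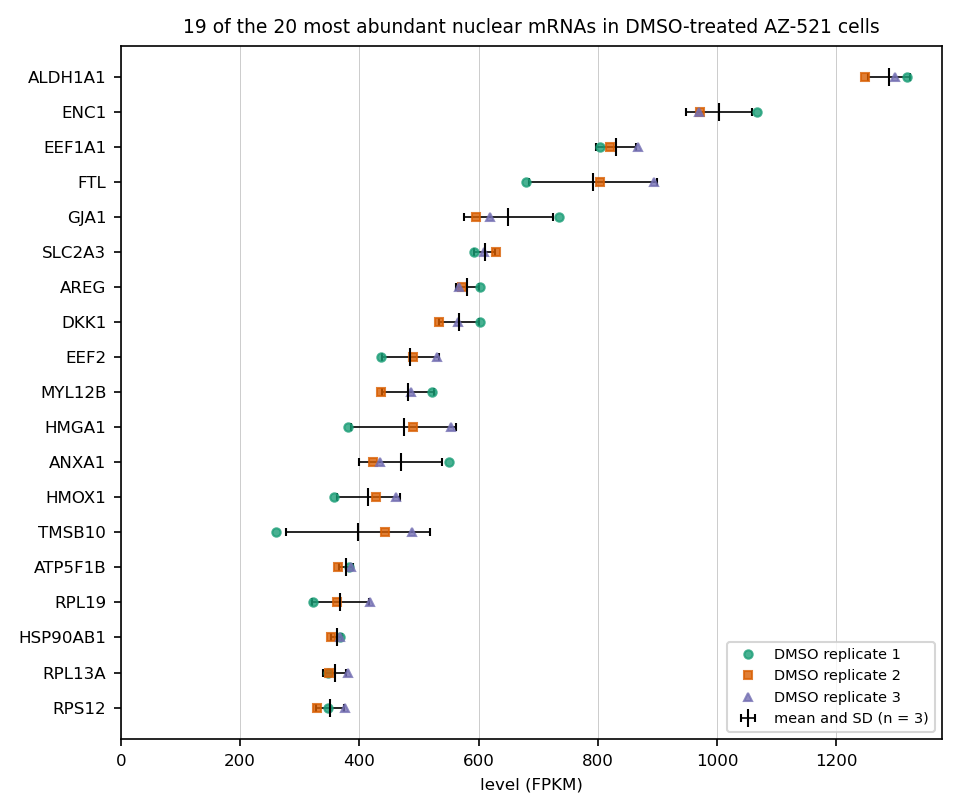
Levels of 19 of the 20 nuclear protein-coding genes with the highest mean, in FPKM on a linear axis, with 1 point per DMSO replicate and the mean with its SD (n = 3). ALDH1A1 and ENC1 are the highest, at 1289 and 1003 FPKM, and neither overlaps its neighbours, whereas TMSB10 is spread from 260 to 488 FPKM.

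The 10 highest nuclear mRNAs held 3.13% ± 0.0597 of all summed FPKM, the 100 highest 11.6% ± 0.345 and the 1000 highest 34.3% ± 0.888. The single highest of them, ALDH1A1, was 1 of 20 genes that together held 4.82% ± 0.191.

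Transcripts of the mitochondrial genome made up 21.7%, 22.3% and 19.9% of summed FPKM in replicates 1 to 3. As a share of recovered reads they were only 5.42% ± 0.338, because FPKM divides by gene length and mitochondrial genes are short. MT-CO1, a subunit of cytochrome c oxidase, was the highest gene of the table at 8555 ± 544 FPKM. All 13 mitochondrial protein-coding genes were detected. A pair of mitochondrial transfer RNA genes differed widely between samples: MT-TN, 73 bases long, read 551, 1471 and 1248 FPKM, and MT-TC, 66 bases long, read 404, 1371 and 1185 FPKM. In both, replicate 1 was far below the other samples.

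By biotype, protein-coding genes held 88.6% ± 0.866 of summed FPKM and 96.3% ± 0.186 of recovered reads. Processed pseudogenes held 1.99% of FPKM, antisense genes 1.25% and long intergenic non-coding genes 1.11%. Very short genes weigh more in FPKM than in reads: the 15 detected mitochondrial transfer RNA genes are all shorter than 200 bases, and this class held 1.41% of FPKM but 0.0245% of reads. All 51 detected microRNA genes were also shorter than 200 bases, led by MIR621 at 108 FPKM, MIR30C2 at 79.6 FPKM and MIR4664 at 68.4 FPKM. Reads over such a gene in an mRNA library need not come from the mature microRNA, and their source was not tested.

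Among long intergenic non-coding genes, the 3 highest were AL161431.1, SFTA1P and SNHG8. AL161431.1 read 117, 106 and 113 FPKM, and SFTA1P, a surfactant-associated pseudogene transcript, read 83.1, 70.2 and 81.7 FPKM. SNHG8, a host gene of a small nucleolar RNA, had 61.9 ± 2.92 FPKM. Among processed transcripts, the snoRNA host GAS5 was highest at 95.4 ± 2.07 FPKM, followed by LRRC75A-AS1 at 64.1 FPKM and SNHG1 at 59.1 FPKM. The highest antisense genes were AC099850.3 at 69.2 FPKM, AL445524.1 at 67.6 FPKM and ZFAS1 at 55.4 FPKM. For ZFAS1, 46.9% of its exon bases are shared with other genes, and no source used here says whether counting used the strand, so its reads cannot be told apart from theirs. RPS28P7 was the highest processed pseudogene, at 240, 316 and 385 FPKM. It copies a ribosomal protein gene, so its reads may be split with the parent gene and its level is uncertain. The same holds for MTATP6P1, a nuclear copy of mitochondrial sequence listed at 318 ± 89.7 FPKM.

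By chromosome, between 38.9% (X) and 56.8% (22) of protein-coding genes were detected, with a median of 52.5% over chromosomes 1 to 22 and X. The median level of detected genes lay between 6.39 and 9.92 FPKM on every one of these chromosomes. Of these, chromosome 19 had the widest spread of its FPKM share, with 4.84%, 5.68% and 5.99% in replicates 1 to 3. Its detected genes had the highest median GC content of these chromosomes, 59.4%. Replicate 1 had the lowest share of chromosome 19, and without replicate 1 the mean share was 5.84%. The part of GC content in this spread was not tested. Single genes weighed heavily on some chromosomes: MYL12B held 16.3% of the FPKM of chromosome 18, ALDH1A1 13.9% of chromosome 9 and ENC1 10.7% of chromosome 5.

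**Figure D2:**
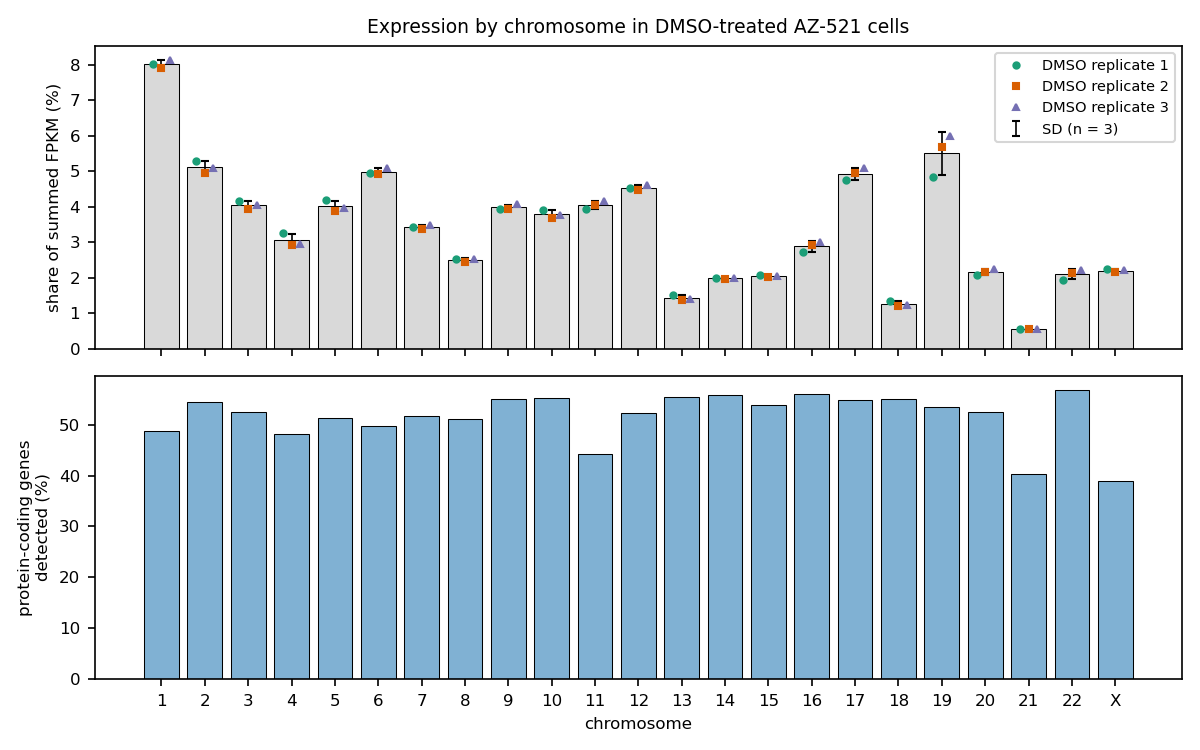
Upper panel, share of summed FPKM (%) by chromosome, with bars for the mean, points for the 3 DMSO replicates and SD (n = 3); lower panel, share of protein-coding genes detected (%), with the Y chromosome and the mitochondrial genome drawn in neither panel. Detection ranges from 38.9% on X to 56.8% on chromosome 22, and of the chromosomes drawn chromosome 19 shows the widest spread between replicates.

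Housekeeping machinery was expressed nearly throughout, with 247 of 253 genes detected, or 97.6%, beside 51.4% of all protein-coding genes. All 79 cytosolic ribosomal protein genes were detected, with a median of 71.2 FPKM, and so were all 61 nuclear-encoded respiratory chain genes, with a median of 21.6 FPKM. All 35 genes of DNA replication and mitosis were detected, led by the cyclin-dependent kinase partner CKS2 at 116 ± 4.76 FPKM. TOP2A, the topoisomerase of dividing cells, read 99.3, 65.0 and 65.3 FPKM, highest in replicate 1. Glycolysis was led by ENO1 at 284 ± 15.9 FPKM and GAPDH at 170 ± 16.9 FPKM, with 16 of 20 genes detected. Cytoskeletal genes were all detected, 40 of 40, with TUBB2A at 311 FPKM and ACTB at 270 FPKM.

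A few genes that nearly every cell uses, named after their values were seen, were low or at 0. EEF1G, a subunit of the elongation factor complex, is listed at 0 in all 3 samples, and 99.9% of its exon bases are shared with another annotated gene. ALDOA, an aldolase of glycolysis, had 0.658 FPKM with 53.5% of its bases shared, and the helicase EIF4A1 had 0.991 FPKM with 48.6% shared. Of the 21 machinery genes under 5 FPKM, 13 share at least 10% of their exon bases, against 64 of the 232 at 5 FPKM or more. No source used here says how reads over shared bases were counted, and its part in these low values was not tested. TMSB4X, an actin-monomer binder like TMSB10, had 2.03 ± 0.359 FPKM and shares no exon base with another annotated gene. NDUFB1 at 4.44 FPKM and ENO2 at 0.88 FPKM, also among the 21, share none either. Not every one of the 21 is used by nearly every cell: ENO2, ALDOC, TUBB3 and TAGLN have a narrower tissue range. The counts of genes with shared bases mix both kinds.

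Products for the outside of the cell were fewer. Of 553 listed genes for secreted products, 138 were detected, or 25.0%, beside 51.4% of all 19906 protein-coding genes outside the Y chromosome. The median over the 553 was 0.0695 FPKM, beside 1.44 FPKM over all protein-coding genes. These lists hold many tissue-restricted hormones, cytokines and gut products, and the shares describe the lists only. Counts of the single secreted lists below are to be read beside that 51.4%. Within them, a few members were among the most abundant mRNAs of the cell.

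The highest were growth factors and antagonists. AREG (amphiregulin), a ligand of the EGF receptor made as a membrane precursor, read 603, 572 and 567 FPKM. EREG (epiregulin), its neighbour on chromosome 4 and a ligand of the same receptor family, read 293, 204 and 209 FPKM. AREG was above EREG in every sample, and replicate 1 was highest for both. KITLG, the ligand of the receptor KIT, read 288, 186 and 195 FPKM and also stood highest in replicate 1. In the same cells KIT itself, named after its value was seen, had 1 read over the 3 samples together.

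DKK1, which blocks the Wnt co-receptors LRP5 and LRP6, read 602, 534 and 566 FPKM. TGFB2, a transforming growth factor, read 197, 149 and 143 FPKM, and 26.6% of its exon bases are shared with other genes. BMP4, a bone morphogenetic protein that patterns the gut and limbs, read 120, 130 and 132 FPKM. BAMBI, counted in the list of antagonists, is a membrane pseudoreceptor and not a secreted protein, and it had 150 ± 17.8 FPKM. CHRDL1, a secreted BMP antagonist, had 70.2 ± 5.84 FPKM. Of the Wnt and BMP antagonists, 12 of 28 were detected. Wnt ligands and R-spondins were low: 3 of 23 were detected, with WNT9A highest at 5.48 ± 0.330 FPKM. WLS, the carrier that brings Wnt proteins to the surface, had 264 FPKM and was named after its value was seen.

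Matrix genes were also among the highest. The laminin chains LAMC1 and LAMB2, parts of basement membranes, had 180 ± 5.51 and 90.4 ± 4.01 FPKM. The galactose-binding lectin LGALS1 read 134, 179 and 193 FPKM, lowest in replicate 1. COL5A2, a fibrillar collagen chain, had 62.0 ± 10.9 FPKM, and 35 of the 99 matrix genes were detected. The matricellular proteins CYR61 and CTGF, known targets of YAP and TEAD, had 124 ± 11.8 and 80.1 ± 2.01 FPKM, where CTGF was named after its value was seen. Among 90 extracellular proteases and their inhibitors, 17 were detected, and the stromelysin MMP10 was well above the next, at 107 ± 8.33 FPKM against 22.0 ± 2.61 FPKM for SERPINH1, the collagen chaperone. APOE, a lipid carrier, had 132 ± 6.48 FPKM, and the growth factor HDGF 99.8 ± 5.66 FPKM.

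Peptide hormones gave 10 detected genes of 65. EDN1, the precursor of the vasoconstrictor endothelin, was highest with 87.2, 75.2 and 78.4 FPKM. GCG, the precursor of glucagon and of the intestinal hormones GLP-1 and GLP-2, read 72.6, 63.5 and 68.7 FPKM, from 8137 reads in all. VGF, a neuroendocrine secretory protein, read 48.6, 65.6 and 65.4 FPKM, and STC2, a stanniocalcin, had 19.5 ± 1.04 FPKM. PCSK1, the convertase that makes GLP-1 from proglucagon, had 4 reads over the 3 samples and was named after its value was seen. Cytokines and chemokines were mostly silent, with 11 of 68 detected, and the highest was LIF at 23.8 ± 2.59 FPKM. Gut secretions gave 2 of 42, FCGBP at 3.46 ± 0.606 FPKM and the membrane mucin MUC1 at 2.62 ± 0.453 FPKM.

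The start-proximal DNA of the most abundant secreted products is shown because several of these promoters hold a TATA box, a description of these lists with no test. The motif TATAAA was searched on the gene's own strand between bases -40 and -11 from the start, in RefSeq promoters (GRCh38.p14), which could be matched for 13 of the 15 highest secreted genes. It was found in 6 of these 13, in 59 of the 391 matched promoters of all listed secreted genes (15.1%) and in 707 of all 27305 promoters (2.59%). Among detected protein-coding genes the share was 1.24%, and among protein-coding genes at 0 it was 9.12%. By the same search it was found in 4 of 15 matched promoters of the 20 highest mRNAs (26.7%) and in 11 of 80 of the 100 highest (13.8%), sets that include some of the same genes. It was found in 0 of 11 matched promoters of the 15 highest receptors and in 2 of 14 of the 15 highest transcription factors. The 6 sequences cover the 100 bases before the RefSeq start, 5′ to 3′ on the gene's strand, and capitals mark TATAAA and, in AREG, the cyclic AMP response element TGACGTCA. That element was searched on both strands in the 250 bases before the start and occurs in 1.77% of all promoters. A match is a string of letters and not a shown binding site.
AREG: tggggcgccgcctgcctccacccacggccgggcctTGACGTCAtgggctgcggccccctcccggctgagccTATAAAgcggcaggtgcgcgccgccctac
DKK1: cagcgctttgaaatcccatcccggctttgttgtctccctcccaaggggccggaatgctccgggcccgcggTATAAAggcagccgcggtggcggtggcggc
EREG: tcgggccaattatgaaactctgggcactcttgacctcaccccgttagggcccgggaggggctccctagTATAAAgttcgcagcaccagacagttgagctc
KITLG: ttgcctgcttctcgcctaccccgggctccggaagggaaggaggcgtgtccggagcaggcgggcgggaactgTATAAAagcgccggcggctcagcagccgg
TGFB2: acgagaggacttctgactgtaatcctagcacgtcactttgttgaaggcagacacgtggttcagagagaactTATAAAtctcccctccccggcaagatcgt
MMP10: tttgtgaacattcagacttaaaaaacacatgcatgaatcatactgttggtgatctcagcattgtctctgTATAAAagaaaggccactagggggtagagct

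These windows lie at chr4:74445036-74445135 on the plus strand for AREG, chr10:52314181-52314280 on the plus strand for DKK1 and chr4:74365045-74365144 on the plus strand for EREG. KITLG is at chr12:88580472-88580571 on the minus strand, TGFB2 at chr1:218345236-218345335 on the plus strand and MMP10 at chr11:102780629-102780728 on the minus strand. The first base of TATAAA lies at -29 in AREG, KITLG and TGFB2, at -30 in DKK1, at -31 in MMP10 and at -32 in EREG. In AREG, TGACGTCA begins at -65. RefSeq starts need not be those of the genes as measured. In the deposited table TGFB2 begins 899 bases downstream of its RefSeq start and KITLG 380 bases upstream of it, whereas the starts of the other 4 lie within 15 bases.

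Surface receptors were detected in 172 of 435 cases, or 39.5%, beside 51.4% of all protein-coding genes. The same 51.4% is the share to set beside the count of each receptor list below. ITGB1, the beta subunit shared by most matrix-binding integrins, had the highest mean, with 204, 178 and 174 FPKM. Its partner ITGAV, an alpha subunit that binds fibronectin and vitronectin, read 150, 119 and 106 FPKM. Replicate 1 was highest for both, and the lowest value of ITGB1 lay above the highest of ITGAV. BSG, the metalloproteinase inducer basigin, had 103 ± 3.93 FPKM. Integrins and matrix receptors gave 18 detected of 38.

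Of the TNF receptor family, TNFRSF19 (TROY), an orphan receptor of stem and neural cells, read 191, 173 and 172 FPKM. These values overlap those of ITGB1, so which of the pair is the highest receptor is not fixed by these samples. TNFRSF10B, a death receptor for the ligand TRAIL, read 105, 108 and 109 FPKM, with an SD of only 1.95 FPKM. TNFRSF12A, the receptor for TWEAK, had 82.2 ± 9.30 FPKM. Cytokine, chemokine and TNF receptors together gave 27 detected of 83.

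Of the 14 Eph receptors, 5 were detected, with EPHA7 at 81.1 ± 10.6 and EPHA2 at 65.4 ± 4.13 FPKM. These receptors read ephrins on neighbouring cells, and the third in order, EPHB4, had 9.28 ± 1.82 FPKM. The other receptor tyrosine kinases gave 18 of 42. The IGF receptor IGF1R led with 32.0 ± 0.669 FPKM, before FGFR2 with 27.6 ± 1.13, LTK with 24.6 ± 2.74 and FGFR1 with 21.5 ± 3.67 FPKM. EGFR, the receptor of AREG and EREG, had 13.9 FPKM, below both in every sample. ERBB4, which EREG also binds, had 14.7 FPKM, below EREG in every sample. The further EGFR ligands BTC, HBEGF, TGFA, EPGN and EGF lay below EGFR, at 10.4, 2.80, 1.09, 0.31 and 0.16 FPKM. ERBB2, a partner receptor with no known ligand of its own, had 9.93 FPKM and ERBB3 0.774 FPKM. These 4 receptors and the further ligands were named after their values were seen.

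G protein-coupled receptors gave 28 detected of the 110 that the table holds. The adhesion receptors ADGRL2 (latrophilin 2) and ADGRG6 led them, with 107 ± 11.6 and 38.6 ± 4.70 FPKM, followed by ADGRL1 and ADGRE5. GLP1R, GLP2R and EDNRB, receptors for products of GCG and EDN1, had 0 reads and were named after their values were seen. A count of 0 here allows up to 3 reads in a sample, which is 0.0629, 0.0323 and 0.0348 FPKM for these 3 genes. The other endothelin receptor, EDNRA, also named afterwards, had 3.54 FPKM. Among adhesion molecules, 36 of 82 were detected, led by the desmosomal cadherin DSG2 at 53.2 ± 7.47 FPKM and the tetraspanins CD63 and CD151 at 39.4 and 36.5 FPKM. SEMA3A, a secreted guidance cue placed in that list, read 47.7, 34.4 and 32.3 FPKM. Wnt and R-spondin receptors gave 15 of 22, led by ZNRF3, an E3 ligase that removes Wnt receptors, at 17.4 ± 0.604 FPKM. NOTCH2 led its family at 26.3 ± 1.36 FPKM, BMPR2 the TGF-beta and BMP receptors at 29.6 ± 6.38 FPKM, and IGF2R the sorting receptors at 39.7 ± 2.07 FPKM.

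**Figure D3:**
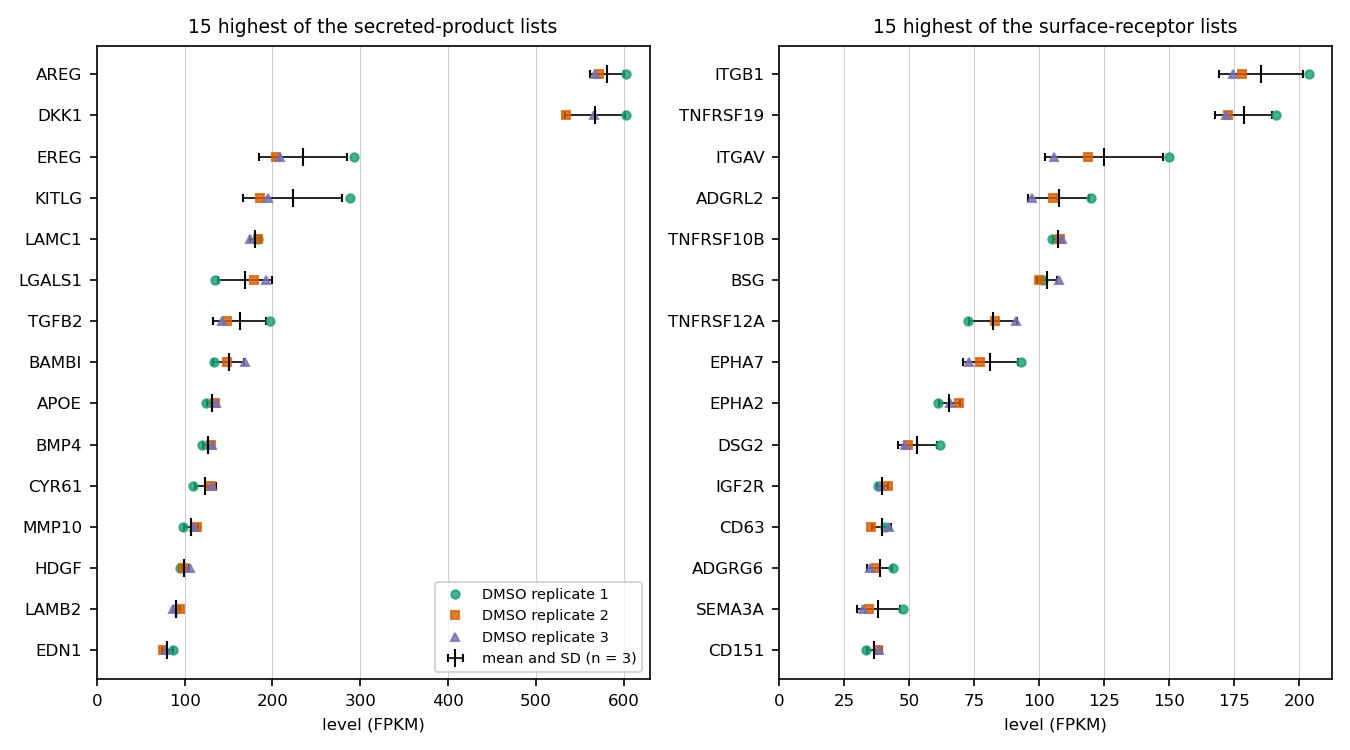
Levels in FPKM on linear axes of the 15 highest members of the secreted-product lists (left) and of the surface-receptor lists (right), with 1 point per DMSO replicate and the mean with its SD (n = 3). AREG and DKK1 stand at 581 and 567 FPKM, well above EREG at 235 FPKM, whereas ITGB1, the receptor with the highest mean, is at 185 FPKM and overlaps TNFRSF19.

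Transcription factors were detected in 317 of 651 listed cases, or 48.7%, close to the 51.4% of all protein-coding genes. Counts of single factor lists below, HOX genes included, are to be read beside that 51.4%. HMGA1, an architectural factor of embryonic and tumour cells that binds AT-rich DNA, was highest, at 380, 490 and 554 FPKM. YBX1, a cold shock domain protein that binds DNA and RNA, read 141, 215 and 234 FPKM. Replicate 1 was lowest for both. ATF4, DDIT3 and ATF3, factors of the bZIP class that respond to amino acid and folding stress, were among the 15 highest. ATF4 read 240, 269 and 288 FPKM, DDIT3 read 145, 136 and 141 FPKM, and ATF3 read 65.6, 64.9 and 71.3 FPKM. For DDIT3, 39.6% of exon bases are shared with other genes. The bZIP list as a whole gave 42 detected of 52.

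MYC, a driver of cell growth, read 122, 148 and 157 FPKM, lowest in replicate 1. KLF6, a Krüppel-like zinc finger factor, had 176 ± 14.0 FPKM, and JUND of the AP-1 family 59.2 ± 12.2 FPKM. ID3, ID1 and ID2, proteins that block basic helix-loop-helix factors and are known targets of BMP signalling, had 109 ± 12.4, 96.6 ± 8.26 and 66.2 ± 8.61 FPKM. BHLHE40, a repressor of the clock and hypoxia responses, had 99.5 ± 8.14 FPKM. ZNF217, an amplified zinc finger gene of several carcinomas, had 60.4 ± 4.57 FPKM.

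Factors with developmental roles were led by NR2F1 (COUP-TFI), an orphan nuclear receptor of neural and mesenchymal development, at 114, 139 and 138 FPKM. It stood well above the next nuclear receptor, NR2F6, at 35.7 ± 4.86 FPKM. SP8, a zinc finger factor of limb and forebrain, read 62.6, 61.0 and 60.5 FPKM. Of 39 HOX genes, 18 were detected: 8 of 10 in the HOXB cluster, 5 of 11 in HOXA, 5 of 9 in HOXC and 0 of 9 in HOXD. HOXB9 was highest at 55.9 ± 4.02 FPKM. Other homeobox genes gave 48 of 148, led by DLX2 at 27.3 ± 4.80, MEOX2 at 27.2 ± 3.44 and TGIF1 at 22.3 ± 1.36 FPKM. Of T-box genes only MGA, TBX1 and TBX19 were detected, 3 of 17, and of forkhead genes 16 of 42, led by FOXN3 at 27.7 ± 1.79 FPKM.

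The deposited table also carries a transcription factor family for 1553 genes. Outside the Y chromosome, 889 of 1547 were detected, or 57.5%, beside 51.4% of all protein-coding genes. Families differed: 398 of 629 C2H2 zinc finger genes were detected and 65 of 192 homeobox genes. In the bHLH family 38 of 101 were detected and among POU factors 3 of 16. No member of the DM or AP-2 families was detected, out of 7 and 5.

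**Figure D4:**
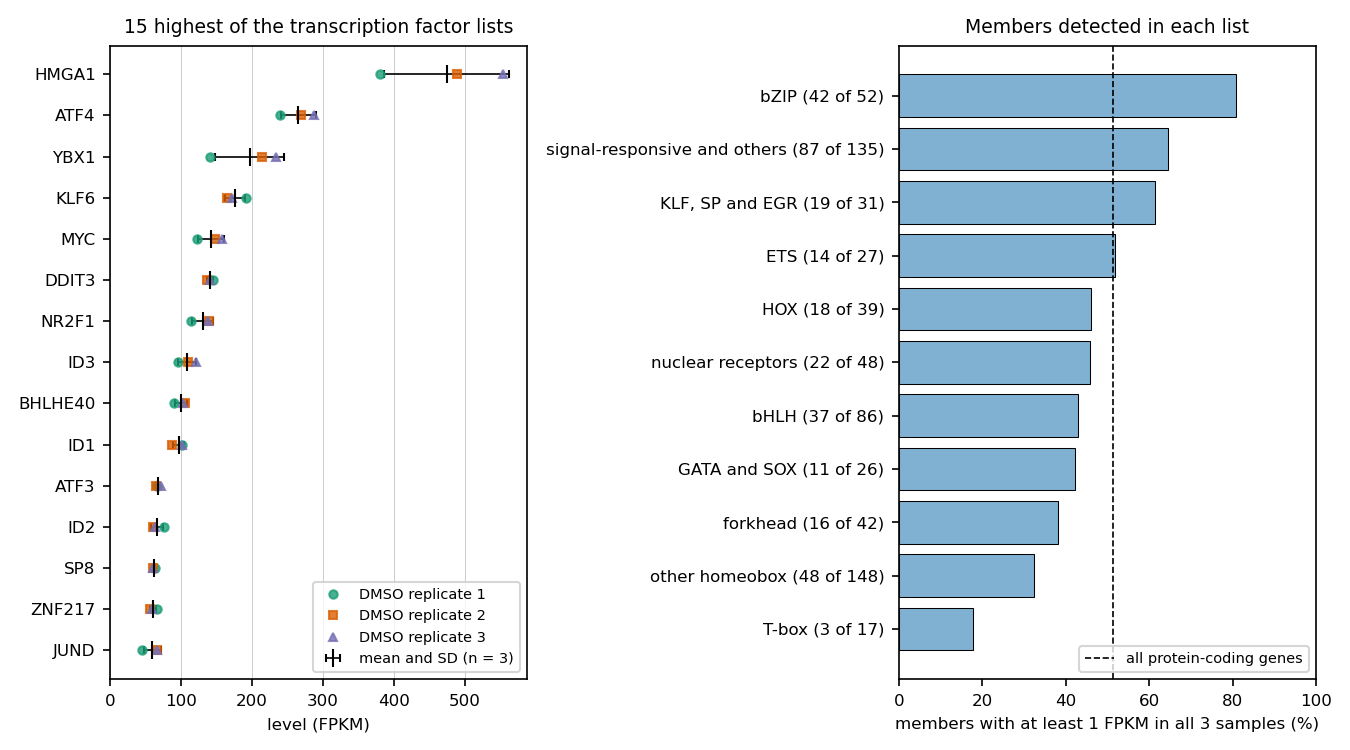
Left, levels in FPKM of the 15 highest members of the transcription factor lists, with 1 point per DMSO replicate and the mean with its SD (n = 3); right, share of members detected (%) in each list, with the share among all protein-coding genes as a dashed line. HMGA1 is highest at 475 FPKM, and detection runs from 3 of 17 T-box genes to 42 of 52 bZIP genes.

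The labelled tissue was compared with marker lists. Over all of these lists, 46 of 280 genes were detected, or 16.4%, beside 51.4% of all protein-coding genes. The count of each list below is to be read beside that 51.4%. In bulk RNA, fewer cells of a type and less RNA per cell cannot be told apart. Of 22 stomach genes, 2 were detected: SOX2, a factor of the foregut and of stem cells, at 38.5, 37.4 and 40.8 FPKM, and BARX1, a factor of the stomach mesenchyme, at 12.0, 17.4 and 17.9 FPKM. The other 20 were under 1 FPKM in all samples. VSIG1, TFF1, TFF2, GKN1, GKN2, LIPF, CTSE, MUC5AC and PGA3 had 0 reads, which allows at most 0.0112 to 0.355 FPKM depending on gene length. They include mucin, trefoil, gastrokine, lipase and pepsinogen products of gastric epithelium. The summed level of the stomach list was 51.8, 56.6 and 59.7 FPKM, nearly all of it from SOX2 and BARX1.

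Intestinal genes gave 4 of 29. GATA6, a zinc finger factor of endoderm, read 38.9, 35.2 and 36.8 FPKM. HNF4G had 2.09 ± 0.354 and CDX2, a master factor of intestine, 1.27 ± 0.296 FPKM. CDH17, SI, HNF4A, CEACAM5, APOA4, CDX1, ALPI, DEFA5, DEFA6, KRT20, ATOH1, ISX and ASCL2 had 0 reads. Of pancreas, bile duct and liver genes, GCG, HHEX (3.65 ± 0.496 FPKM) and FOXA3 (1.73 ± 0.139 FPKM) were detected, 3 of 22. FOXA2, PTF1A, INS, SST, TTR, APOB, AFP, SERPINA1, CPA1, PRSS1 and AMY2A had 0 reads.

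Most genes of the general epithelial list were close to silent. Of its 25 genes, only OCLN, a tight junction protein, was detected, at 19.5, 16.5 and 17.4 FPKM. Junction genes outside this list were not counted as a set, but some were detected. The claudin CLDN1, named after its value was seen, had 34.5 FPKM. The desmosomal cadherins DSG2, DSC3 and DSG3 had 53.2, 49.9 and 14.1 FPKM. CLDN4 was at 0.928, 1.03 and 1.23 FPKM and so missed the minimum in replicate 1 alone. KRT8 had 0.390 ± 0.0390 FPKM from 135 reads. Of the defining epithelial markers, EPCAM had 12 reads in all and CDH1, which encodes E-cadherin, 5 reads. KRT18, KRT19, KRT20, CDH17, GRHL2, EHF and ST14 had 0 reads, which allows at most 0.0322 to 0.106 FPKM. Keratin genes have many pseudogenes: 50 named after KRT8 held 1043 reads and 67 named after KRT18 held 152 reads, so their reads may be split and both values are uncertain. EPCAM and CDH1 have no pseudogene of that kind in the table.

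Of 27 mesenchymal genes, 11 were detected, or 40.7%, beside 51.4% of all protein-coding genes. VIM, the intermediate filament of mesenchymal cells, read 107, 95.6 and 104 FPKM, and FN1 (fibronectin) 48.0, 50.8 and 48.9 FPKM. COL3A1, a fibrillar collagen, had 42.9 ± 3.81 FPKM and the proteoglycan LUM 13.6 ± 2.55 FPKM. N-cadherin, CDH2, at 12.1 ± 1.58 FPKM, and the repressor ZEB1, at 10.0 ± 1.62 FPKM, are further members, chosen after their values were seen. Not all members of this programme were on: SNAI2, PRRX1, TWIST1 and TWIST2 had 0 reads. VIM has 24.4% of its exon bases shared with other genes.

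Markers of other cell types were mixed. Squamous genes gave 5 of 20, with the desmosomal cadherins DSC3 at 58.9, 45.1 and 45.9 FPKM and DSG3 at 14.1 ± 2.15 FPKM. TP63, the master factor of stratified epithelium, had 8.72 ± 0.983 FPKM, whereas KRT1, KRT4, KRT5, KRT13, KRT14, KRT16, IVL, SPRR1A, SPRR1B and SPRR3 had 0 reads. Pluripotency and germ cell genes gave 3 of 16. DPPA2, a factor of early embryos and germ cells, stood at 88.4, 80.9 and 85.4 FPKM, while DAZL, ZFP42, DPPA3 and TDGF1 had 0 reads. UTF1 read 2.93, 9.88 and 10.3 FPKM, lowest in replicate 1. Neuroendocrine genes gave 3 of 16, namely VGF, the vesicle sensor SYT1 (40.7 ± 5.80 FPKM) and SYP (2.28 ± 0.0327 FPKM), with 0 reads for NEUROG3, NEUROD1, PAX4 and SCG2. Neural genes gave 5 of 26, led by the neurofilament NEFL at 8.78 ± 0.432 FPKM.

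Genes of blood vessels, muscle and blood were mostly absent. Endothelial genes gave 3 of 15, led by SOX18 at 14.9 ± 4.52 FPKM, with 0 reads for CDH5, ERG, EMCN, FLT1, ROBO4 and SOX17. Muscle genes gave 4 of 17, led by the slow troponin TNNT1 at 15.6 ± 2.57 FPKM, with 0 reads for DES, MYOD1, MYF5, TNNT2 and ACTC1. Of 22 leucocyte genes only CD8A was detected, at 2.89 ± 0.127 FPKM, and PTPRC, CD3D, CD3E, CD3G, CD2, MS4A1, LYZ, TYROBP and FCGR3A had 0 reads. Of 30 cancer-testis antigens, genes otherwise limited to the germ line, 3 were detected. MAGEA4 read 77.3, 60.4 and 66.7 FPKM, PRAME 23.5, 23.5 and 25.3 FPKM, and CT45A1 8.01, 8.63 and 8.64 FPKM. The other members, apart from 2 reads for SPANXB1, had 0 reads, and many of them are near-identical copies whose reads cannot be told apart, so these zeros are uncertain.

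Over all these marker lists, 229 genes were under 1 FPKM in every sample. Of them, 171 share no exon base with another annotated gene and 207 share under 10%. A low value without shared bases can still be uncertain: TMSB4X, named above, had 2.03 FPKM and shares none. Whether reads of these marker genes were lost in counting was not tested. Under 1 FPKM in every sample were 20 of the 22 stomach genes and 25 of the 29 intestinal genes. No cell type is named from these lists, and the identity of the line was not tested.

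**Figure D5:**
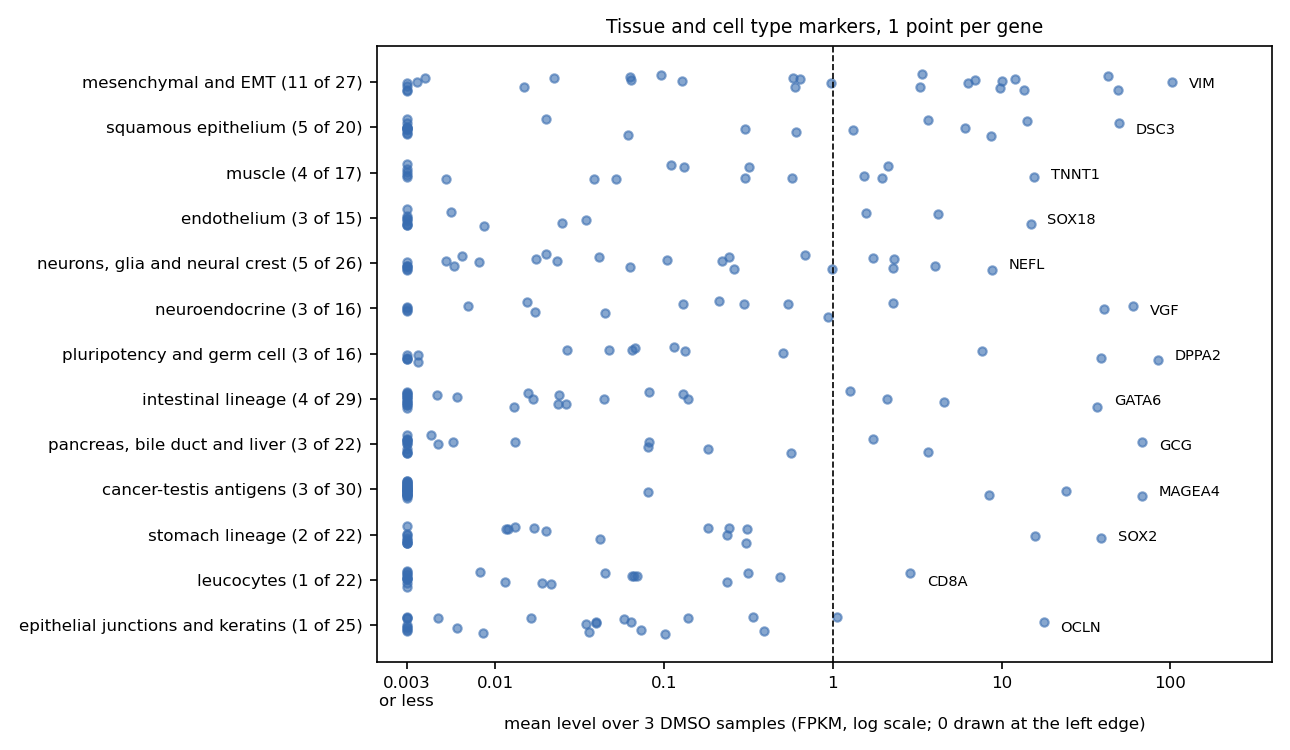
Mean level over the 3 DMSO samples in FPKM (log axis) of each gene of 13 marker lists, with 1 point per gene, values of 0.003 FPKM or less and zeros drawn at the left edge, the detection minimum of 1 FPKM as a dashed line, and the number of members detected in brackets. The highest gene of each list is named, and VIM is the highest mesenchymal gene at 102 FPKM. Genes of the epithelial list lie at the left apart from OCLN at 17.8 FPKM and CLDN4. CLDN4 lies just above the line by its mean but below it in replicate 1.

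The genes whose replicates spread widest were chosen among protein-coding genes with a mean of at least 10 FPKM. COX6A1, a subunit of cytochrome c oxidase, read 6.93, 22.4 and 19.1 FPKM, and OST4, of the oligosaccharyltransferase, read 10.1, 26.4 and 27.7 FPKM. RPL41, the shortest ribosomal protein, read 53.1, 125 and 133 FPKM. ZNF358, FOXD1, SERF2, C4orf48, HIGD2A, NDUFB10 and the Notch target HES4 complete the 10. Replicate 1 was the lowest and the farthest sample in 10 of these 10 genes, which were chosen for their spread, beside 1584 of the 4287 genes in which it was lowest and 2914 in which it was farthest. Their transcripts had a median GC content of 57.0%, against 47.0% over the 4287 genes, and a median summed exon length of 1103 against 4740 bases. The part of GC content in their spread was not tested.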

How the data were processed

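Polyadenylated RNA of the 3 DMSO samples had been made into stranded libraries with an Illumina mRNA kit and read as 150-base pairs, per the labels' protocols. Aligner, counter and strand setting were not given in the sources used here. Mouse builds (GRCm38, mm10) are named in the submitters' processing notes, whereas all 58735 gene identifiers and coordinates of the deposited table are human and those of GENCODE 29 (GRCh38). The authors deposited FPKM values, and the table's gene length equals the summed exons for all 58735 genes, so genes with long rarely used exons have understated FPKM. Columns were matched to samples by group and number, and 27 gene names turned into dates were restored through their identifiers.

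FPKM times gene length was a whole multiple of 1 step per sample for 100% of values above 0 (tolerance 0.01), which gave reads per gene. The implied denominators were 1.03, 1.10 and 1.08 times the reads over genes. No count test was run, since there was 1 group and no comparison, and the columns of the treated samples were not used. The recovery of reads was tested on simulated data. Depth limits low genes: a count of 0 allows up to 3 reads at 95% confidence, and such limits cover counting error only, since the reads carry no molecular identifiers.

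Means, SDs, shares and counts over n = 3 were computed with Python 3.11.15, pandas 2.3.3 and numpy 2.4.6, and figures with matplotlib 3.10.9. The members and the 50 gene lists (2046 symbols, of which 4 are not in the table) were chosen with earlier results of these data known. Named were the 20 highest nuclear mRNAs, the 15 highest secreted, receptor and factor genes, up to 4 highest of every other list with cell type markers at 0, the 3 highest of non-coding biotypes described, the highest genes of chromosomes described and the 10 widest spreads. Some genes that this rule takes are left out and not reported here. Other genes are marked in the text as named after their values were seen. The Y chromosome and XIST were left out. Alternatives were other detection minimums, TPM computed from the FPKM, recovered reads, medians, gene subsets and leaving out each replicate.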

Additional observations from a re-analysis of the deposited data

How the results depend on the processing

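With a minimum of 0.1 FPKM, 18357 genes were detected, and with 5 FPKM 6883 genes. Leaving out each replicate gave 12440 to 12666 genes, and TPM 16273. The protein-coding share was 90.8% without genes shorter than 200 bases, 96.3% of recovered reads and 91.0% without mitochondrial genes. The mitochondrial share was 19.1% among protein-coding genes and 5.42% of recovered reads. As shares of recovered reads, the 10, 100 and 1000 highest mRNAs held 2.81%, 10.9% and 37.8%. Epithelial members detected numbered 3 by TPM and 2 by the median over replicates. Without each replicate in turn they numbered 1 to 2, where leaving out DMSO replicate 1 added CLDN4. The counts of secreted, receptor, transcription factor, stomach, intestinal and mesenchymal members stayed within 1.5 times under TPM, the median and each left-out replicate. In 186 values from leaving out a replicate, the 62 named levels of the 20 highest mRNAs and of the 15 highest of each role moved by at most 1.17-fold. No paired analysis was possible because a single group is described and no result comes from a test. Depth limits genes with few reads, and FPKM favours short genes.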

Other observations

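Several genes outside the lists, chosen after their values were seen, were also abundant. KCNJ2, an inward rectifier potassium channel, read 281, 218 and 218 FPKM, and the protocadherin PCDH18 read 203, 171 and 159 FPKM, both highest in replicate 1. DACH1, a transcriptional cofactor of limb and eye development, had 156 FPKM. UCHL1, a ubiquitin hydrolase of neurons, had 109 FPKM. YAP1, the Hippo pathway coactivator, had 121 FPKM.

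Among aldehyde dehydrogenases of retinoic acid synthesis, also chosen after their values were seen, ALDH1A3 had 18.3 FPKM beside the 1289 FPKM of ALDH1A1, and ALDH1A2 had 0 reads. Of gap junction genes, GJC1 had 7.68 FPKM beside 650 FPKM for GJA1, whereas GJB1, the connexin of many gut epithelia, had 0 reads and GJB2 had 2. Of calcium-binding proteins, S100A10 read 222, 277 and 318 FPKM, while S100A6 is listed at 0. EEF1G, which every cell uses, is also listed at 0, but with 99.9% of its exon bases shared, against 2.37% for S100A6. No source used here gives the counting options, so the zero of S100A6 is uncertain.

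Of tumour suppressor genes, chosen after their values were seen, RB1 had 42.5 FPKM, CDKN2A 8.13 FPKM and SMAD4 6.46 FPKM. The neighbours of CDKN2A on chromosome 9, CDKN2B and MTAP, had 13.5 and 11.2 FPKM. The telomerase gene TERT had 2.68 FPKM. The light chain of MHC class I, B2M, had 61.6 FPKM.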
